A study of Mus musculus with 15 samples.

Results

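Trp53, which encodes the transcription factor p53, and 9 of its target genes were followed through RNA-seq of mouse embryonic stem cells (mESCs) that lacked or were depleted of the cohesin subunits STAG1 and STAG2. The 10 genes were taken by symbol: Trp53, Cdkn1a, Mdm2, Ccng1, Zmat3, Phlda3, Perp, Bbc3, Sesn2 and Trp53inp1, out of 23412 genes in the counts. All 10 were found in every library, and all 10 passed the filter on low counts that left 14508 genes to test. The 15 polyA RNA libraries came from the male v6.5 mESC line, with 3 replicates in each of 5 conditions. These were wild-type cells with the transfection control siGLO, Stag1-/- cells with siGLO, Stag2-/- cells with siGLO, wild-type cells with siStag1, and Stag2-/- cells with siStag1. All cells, controls included, were transfected with 50 nM of siRNA or siGLO and collected after 48 h. Each knockout genotype was 1 CRISPR clone sampled 3 times, so that a difference between genotypes cannot be told apart from a difference between clones. The study's supplement calls the replicates of the wild type and both knockouts biological, but the labels do not say whether replicates were separate cultures, so the p-values measure only the spread between these libraries, part of which may be technical.

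p53 is a DNA-binding tetramer that cells hold at a low level, because its target MDM2 marks it for degradation, and that accumulates when DNA is damaged or ribosome synthesis or replication fails. Its activity is set mainly by protein stability and modification, so that it is usually read from its targets, which stop the cell cycle, return the signal to p53, trigger apoptosis or change metabolism. Embryonic stem cells carry much p53 while cycling fast, and cohesin, the ring complex that holds sister chromatids and shapes chromatin loops, contains either STAG1 or STAG2.

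p53 binds pairs of a short palindromic half-site, and the promoters below are shown because they belong to the target genes that fell in Stag2-/- cells. RefSeq start site windows (GRCm38.p6, 250 bases before to 50 bases after a start) were held for 7 of the 10 genes, in 10 windows. Zmat3, Perp and Trp53inp1 had no entry. Windows were searched for the p53 half-site without mismatch, a palindrome that reads alike on both strands. They were also searched for a full site, which was any pair of half-sites up to 13 bases apart with the invariant C and G of each half-site in place and at most 2 mismatches at the other positions, and which can include a half-site counted alone. Capitals mark the matches, and positions are counted back from the start site, with −1 as the base before it.
Cdkn1a, upstream start, plus strand, chr17:29090729-29091028: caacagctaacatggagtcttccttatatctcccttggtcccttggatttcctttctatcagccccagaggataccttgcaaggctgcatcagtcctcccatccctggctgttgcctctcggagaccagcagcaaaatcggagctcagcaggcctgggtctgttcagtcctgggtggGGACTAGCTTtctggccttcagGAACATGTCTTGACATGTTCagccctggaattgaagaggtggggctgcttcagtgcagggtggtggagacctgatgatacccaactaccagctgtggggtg
Cdkn1a, downstream start, plus strand, chr17:29093519-29093818: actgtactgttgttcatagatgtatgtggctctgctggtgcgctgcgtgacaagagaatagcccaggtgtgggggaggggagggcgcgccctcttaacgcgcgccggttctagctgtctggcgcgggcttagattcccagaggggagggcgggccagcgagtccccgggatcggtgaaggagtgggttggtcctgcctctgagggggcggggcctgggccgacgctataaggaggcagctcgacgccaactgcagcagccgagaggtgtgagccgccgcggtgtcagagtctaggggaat
Ccng1, minus strand, chr11:40755237-40755536: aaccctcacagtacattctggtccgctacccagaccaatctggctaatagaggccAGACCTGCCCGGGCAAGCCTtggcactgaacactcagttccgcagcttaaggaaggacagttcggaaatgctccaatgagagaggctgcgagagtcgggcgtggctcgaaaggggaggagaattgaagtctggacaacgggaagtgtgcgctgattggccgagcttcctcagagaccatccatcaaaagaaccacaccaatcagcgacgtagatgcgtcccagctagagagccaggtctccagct
Mdm2, minus strand, chr10:117710709-117711008: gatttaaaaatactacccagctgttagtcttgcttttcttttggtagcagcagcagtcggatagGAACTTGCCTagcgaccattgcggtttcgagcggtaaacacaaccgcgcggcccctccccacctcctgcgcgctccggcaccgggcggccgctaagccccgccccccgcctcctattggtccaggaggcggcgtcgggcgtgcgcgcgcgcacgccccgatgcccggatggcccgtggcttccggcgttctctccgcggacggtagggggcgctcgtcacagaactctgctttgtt
Phlda3, plus strand, chr1:135765835-135766134: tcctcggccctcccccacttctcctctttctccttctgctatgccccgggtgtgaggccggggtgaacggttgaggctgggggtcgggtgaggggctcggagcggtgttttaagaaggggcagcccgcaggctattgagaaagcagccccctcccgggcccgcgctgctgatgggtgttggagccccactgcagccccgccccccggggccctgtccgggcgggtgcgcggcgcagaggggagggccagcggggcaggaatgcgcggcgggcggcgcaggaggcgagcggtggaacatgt

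A full site stood in 2 of these windows. In the upstream window of Cdkn1a it ran from −51 to −32 (chr17:29090928-29090947) with no spacer and 1 mismatch, 2822 bases before the downstream start of the same gene. A separate half-site began at −73. In Ccng1 a full site with no spacer and 1 mismatch ran from −195 to −176 (chr11:40755462-40755481). Mdm2 had a half-site at −186 and Trp53 one at −75. The downstream window of Cdkn1a, Phlda3, the 3 windows of Bbc3 and Sesn2 had no match. Of all 32851 windows of this length in the table, 8.36% held a half-site and 4.09% a full site. These are letter matches in a short window and were not tested for binding.

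Between 14982560 and 19070126 counts fell on genes per library. The targeted genes were examined first. Stag2 had 663 to 739 normalized counts in Stag2-/- siGLO cells and 851 to 941 in Stag2-/- siStag1 cells, against 2329 to 2334 in wild-type siGLO cells. Stag1 had 353 to 518 in wild-type siStag1 cells and 629 to 781 in Stag2-/- siStag1 cells, against 2012 to 2288 in wild-type siGLO cells. In Stag1-/- cells Stag1 stood at 1826 to 2368, and its count cannot test whether this clone is labelled correctly, because the in-frame exon deletion removes the protein but leaves the rest of the transcript. All 10 mESC markers, Pou5f1 and Nanog among them, were above 1 CPM (counts scaled to a fixed library total) in every condition. Their sum was 6705 to 7033 CPM in wild-type siGLO, 5512 to 6395 in Stag1-/-, 5180 to 6220 in Stag2-/-, 6264 to 6643 in wild-type siStag1 and 3810 to 4892 in Stag2-/- siStag1 cells. Members of this list moved unequally in Stag2-/- siStag1 cells. The mean CPM of Esrrb was 107 there against 667 in wild-type siGLO, of Klf4 50.4 against 224 and of Nanog 97.9 against 298. Pou5f1 stood at 927 against 1150, and only Tdgf1 was higher, at 1530 against 1390. The 6 primitive endoderm markers, led by Dab2 and Gata4, summed to 227 to 251 CPM in wild-type siGLO and 222 to 250 CPM in wild-type siStag1 cells, with 18.9 to 30.5 in Stag1-/-, 41.9 to 67.0 in Stag2-/- and 49.6 to 65.1 in Stag2-/- siStag1 cells. The 5 neural markers reached 89.9 to 183 CPM in Stag2-/- and 128 to 237 in Stag2-/- siStag1 cells against 64.0 to 78.9 in wild-type siGLO. The 4 trophoblast markers, mostly Krt7, reached 29.0 to 39.5 in Stag1-/- cells against 5.26 to 9.05. Sums of 5 mesoderm markers (7.89 to 28.5 CPM) and 7 fibroblast markers (16.5 to 37.1 CPM, Lum and Dcn at 0 in wild-type siGLO) were low in every condition. Their part in the changes of the p53 targets was not tested. In bulk RNA, fewer cells of a type and less RNA per cell cannot be told apart.

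All 10 genes were well expressed. Compared per exon length (RPKM, counts per kilobase of exon, scaled to depth), Ccng1 stood highest in wild-type siGLO cells at 74.2 ± 7.32 (SD, n = 3), followed by Trp53 at 68.1 ± 3.03, Trp53inp1 at 45.0 ± 7.09 and Phlda3 at 40.7 ± 6.84. Bbc3 (28.4 ± 5.03), Mdm2 (27.7 ± 1.95) and Sesn2 (24.9 ± 2.39) were close to each other within their spread. Zmat3 (18.9 ± 1.09), Perp (15.6 ± 2.75) and Cdkn1a (15.4 ± 3.40) stood lowest, yet all above the median of 4.93 RPKM over 14403 tested genes with a length. Trp53 lay at percentile 95.5 and Cdkn1a at percentile 76.3 of those genes. In Stag2-/- cells Cdkn1a lay at percentile 63.4, with 8.69 ± 1.70 RPKM (SD, n = 3).

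**Figure D1:**
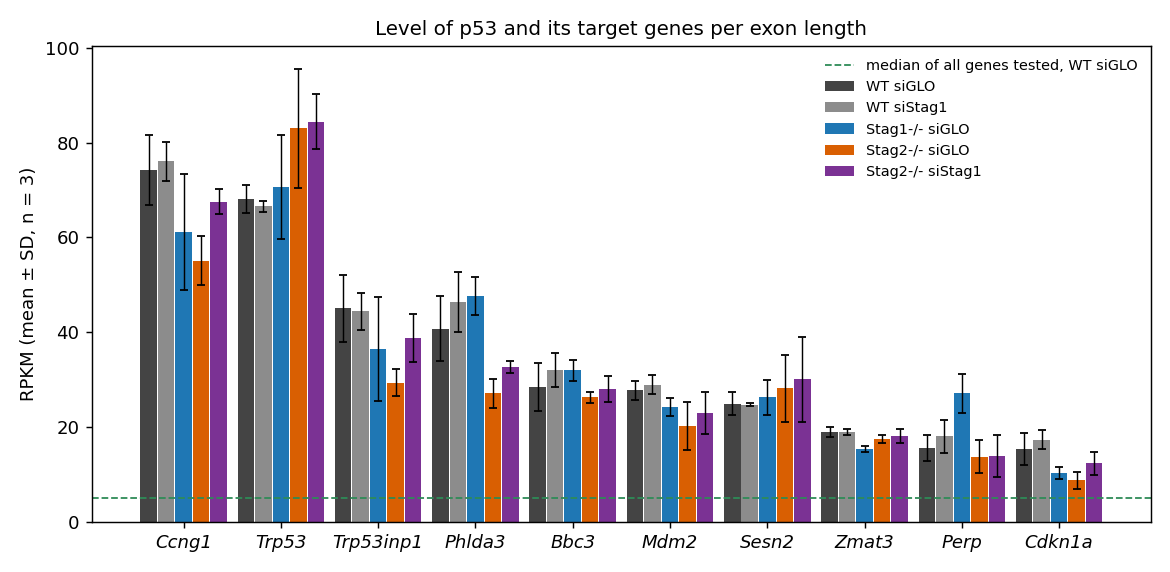
Level per exon length (RPKM, bars are means and error bars SD, n = 3 libraries) of the 10 genes in the 5 conditions, ordered by the level in wild-type siGLO cells, with the median of all tested genes in wild-type siGLO cells (4.93 RPKM) as a dashed line. Ccng1 and Trp53 stand highest and Cdkn1a lowest, and every bar lies above the dashed line.

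Between Stag2-/- and wild-type siGLO cells 6 of the 10 genes differed, where 28.3% of all tested genes passed the threshold of an adjusted p under 0.1 (edgeR's quasi-likelihood test). Trp53 rose, and 5 of its 9 targets fell: Cdkn1a, Mdm2, Ccng1, Phlda3 and Trp53inp1. Of all tested genes 14.4% fell. The log2 fold change of the 9 targets had a median of −0.43, against 0.0070 over all tested genes, and 8 of the 9 were below 0. With 1 library left out, 2 to 5 of the 10 passed, the fewest (2) without wild-type siGLO replicate 2. In Stag1-/- cells 3 of the 10 genes passed, against 20.0% of all genes: Cdkn1a and Zmat3 fell, where 9.93% of all genes fell, and Perp rose. The targets' median there was −0.20, against −0.013 over all genes. In wild-type siStag1 cells 0 of the 10 passed, against 0.248% of all genes, with 0 at an unadjusted p under 0.05 and 0 called by DESeq2. In Stag2-/- siStag1 cells 2 of the 10 passed, against 43.9% of all genes: Trp53 rose and Phlda3 fell, where 21.3% of all genes fell, and without wild-type siGLO replicate 2 none of the 10 passed. These 4 comparisons share the same wild-type siGLO libraries. The 10 genes were chosen with earlier results of these data known, so their counts and medians are not independent of the choice.

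**Figure D2:**
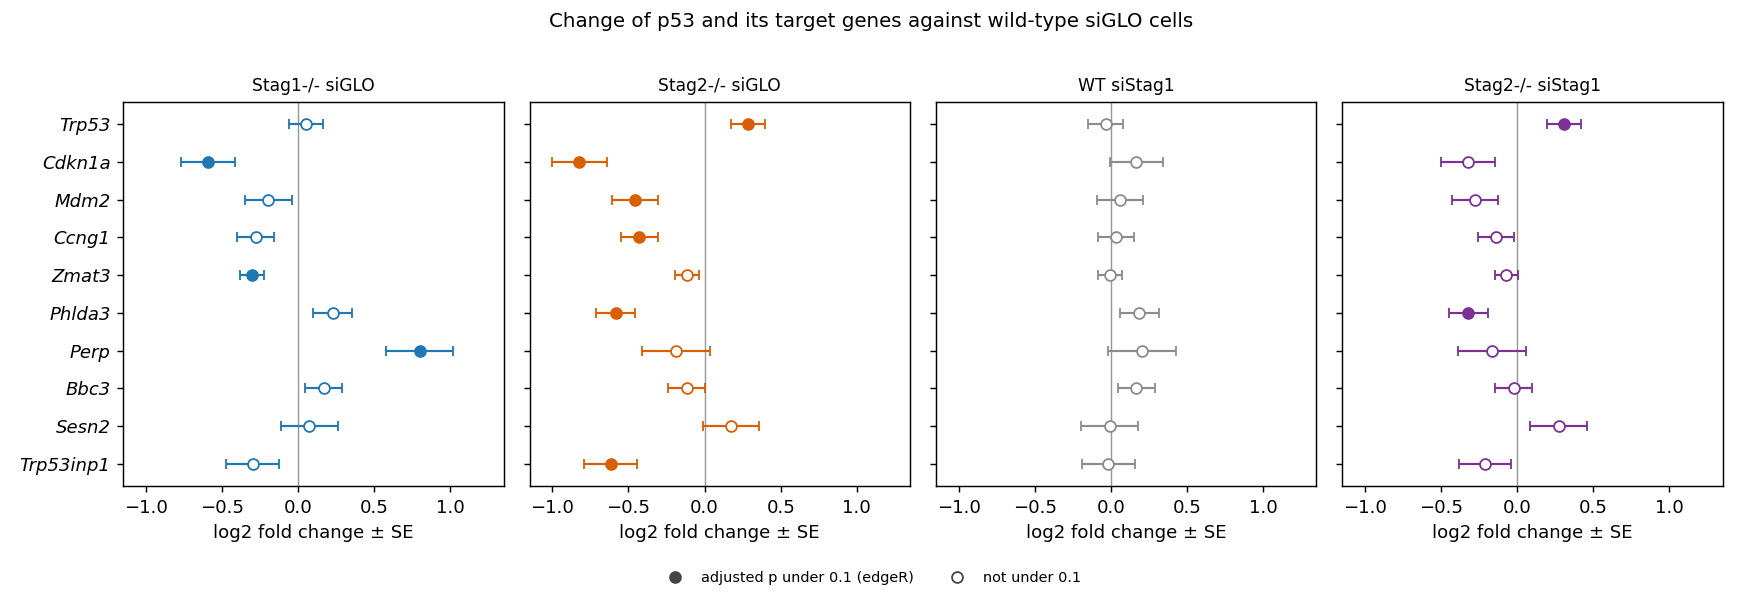
Log2 fold change (x axis, points with SE from edgeR) of the 10 genes against wild-type siGLO cells in the other 4 conditions, 3 libraries each. Filled points passed an adjusted p of 0.1: 3 in Stag1-/-, 6 in Stag2-/-, 0 in wild-type siStag1 and 2 in Stag2-/- siStag1 cells.

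Trp53 mRNA (chr11:69580359-69591873, plus strand, positions of whole genes here and after it in mm10 from GENCODE) was higher in both conditions without STAG2. In replicates 1, 2 and 3 it had 4947, 4552 and 4891 normalized counts (counts brought to a common depth) in wild-type siGLO cells, and 6836, 5135 and 5561 in Stag2-/- cells. Stag2-/- siStag1 cells had 6385, 5570.1 and 5880.4, Stag1-/- cells 5483, 4092.5 and 5343, and wild-type siStag1 cells 4625, 4646 and 4782. The 3 libraries of each Stag2-/- condition lay above all 3 wild-type siGLO libraries, whereas the Stag1-/- libraries lay on both sides of them, and replicate 2 was the lowest of all 15. Trp53 rose by 0.28 on the log2 scale in Stag2-/- cells (SE 0.11, adjusted p = 0.0867 from edgeR) and by 0.31 in Stag2-/- siStag1 cells (SE 0.11, adjusted p = 0.0425). The change in Stag1-/- cells was 0.05 (SE 0.11, adjusted p = 0.816). With 1 library removed at a time, the call in Stag2-/- cells disappeared 5 times out of 6, with a change of 0.16 and adjusted p = 0.355 without Stag2-/- replicate 1, and it was kept without Stag2-/- replicate 2. A fit on the 6 libraries compared alone also lost it (0.29, adjusted p = 0.104). The call in Stag2-/- siStag1 cells was lost without wild-type replicate 2 (adjusted p = 0.142) and without Stag2-/- siStag1 replicate 1 (adjusted p = 0.124).

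Cdkn1a (chr17:29090976-29100727, plus strand) encodes p21, the cyclin-dependent kinase inhibitor through which p53 halts the cell cycle. Its normalized counts in replicates 1, 2 and 3 were 731, 973 and 1149.8 in wild-type siGLO cells, 578, 591 and 719.6 in the Stag1 knockout, and 622, 571 and 420.2 in the Stag2 knockout. Wild-type siStag1 cells had 937, 1094 and 1173, and Stag2-/- siStag1 cells 931, 648 and 699. Both knockouts lay below every wild-type siGLO library, though wild-type replicate 1 was close to them, and Stag2-/- siStag1 cells overlapped the wild type. Cdkn1a fell by 0.82 on the log2 scale in Stag2-/- cells (fitted ratio 0.566, SE 0.18, adjusted p = 0.00463 from edgeR), a call kept in all 6 fits that left out 1 library. It fell by 0.60 in Stag1-/- cells (ratio 0.662, SE 0.18, adjusted p = 0.0356), and this call was lost without wild-type replicate 3 (adjusted p = 0.156), Stag1-/- replicate 1 (adjusted p = 0.129) or Stag1-/- replicate 2 (adjusted p = 0.107). In Stag2-/- siStag1 cells the change was −0.32 (SE 0.18, adjusted p = 0.169), and it passed without wild-type replicate 1 (adjusted p = 0.0456) or Stag2-/- siStag1 replicate 1 (adjusted p = 0.0432). An annotated transcript on the other strand, AC167363.2, overlaps 273 bases of Cdkn1a exons and is not listed in the counts, and the strand setting of the counting is not given in the sources used here, so reads from the pair cannot be told apart.

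Mdm2 and Ccng1 return the p53 signal to p53 itself. Mdm2 (chr10:117688875-117710758, minus strand), the ubiquitin ligase of p53, had 2301, 2639 and 2408 normalized counts in wild-type siGLO replicates 1, 2 and 3, against 2293, 1636 and 1421 in Stag2-/- cells. Stag1-/- cells had 1985, 2303 and 2123, wild-type siStag1 cells 2397, 2751 and 2511, and Stag2-/- siStag1 cells 2464, 1913 and 1692. All 3 Stag2-/- siGLO libraries lay below the wild type, replicate 1 only just, and Stag2-/- siStag1 replicate 1 lay inside the wild-type range. Mdm2 fell by 0.46 in Stag2-/- cells (SE 0.15, adjusted p = 0.0446 from edgeR), and the call was lost without wild-type replicate 2 (adjusted p = 0.152), Stag2-/- replicate 2 (adjusted p = 0.145) or Stag2-/- replicate 3 (adjusted p = 0.172). Changes of −0.20 in Stag1-/- cells (adjusted p = 0.443) and −0.28 in Stag2-/- siStag1 cells (adjusted p = 0.172) did not pass, though the latter did without Stag2-/- siStag1 replicate 1 (−0.44, adjusted p = 0.0314).

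Ccng1 (chr11:40748552-40755311, minus strand) encodes cyclin G1, which recruits a phosphatase to MDM2. It had 4295, 5055 and 4266 normalized counts in wild-type siGLO replicates 1, 2 and 3, and 3313, 3717 and 3083 in Stag2-/- cells. In Stag1-/- cells it had 2980.3, 4466 and 3764, in wild-type siStag1 cells 4510.3, 4941 and 4486, and in Stag2-/- siStag1 cells 4095, 4302 and 3979. All 3 Stag2-/- libraries lay below the wild type, and Stag1-/- replicate 1 was the lowest of the 15. Ccng1 fell by 0.43 in Stag2-/- cells (SE 0.12, adjusted p = 0.0192 from edgeR), which missed the threshold without wild-type replicate 2 (adjusted p = 0.106). In Stag1-/- cells the change was −0.28 (SE 0.12, adjusted p = 0.137), and −0.29 with the replicate number as a block (adjusted p = 0.0191 from edgeR). Without Stag1-/- replicate 2 it also passed (−0.43, adjusted p = 0.0277).

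Zmat3 (chr3:32334792-32366014, minus strand), a zinc finger RNA-binding protein that acts in p53 tumour suppression, was the most even of the 10, between 2954 and 3977 normalized counts in all libraries. Normalized counts of replicates 1, 2 and 3 were 3544, 3785 and 3977 in wild-type siGLO and 3014, 3195 and 2954 in Stag1-/- cells. The other conditions ran from 3288 to 3915. The 3 Stag1-/- libraries were the lowest of all 15. Zmat3 fell by 0.30 in Stag1-/- cells (ratio 0.810, SE 0.078, adjusted p = 0.0162 from edgeR), in all 6 fits without 1 library. In Stag2-/- cells the change was −0.12 (SE 0.078, adjusted p = 0.312).

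Phlda3 (chr1:135766119-135769136, plus strand) encodes a small protein that competes with the kinase AKT for membrane lipids. It had 897, 1253 and 1166 normalized counts in wild-type siGLO replicates 1, 2 and 3, against 795, 773 and 643 in Stag2-/- cells. Stag2-/- siStag1 cells had 922, 879 and 852, Stag1-/- cells 1411, 1273 and 1196, and wild-type siStag1 cells 1068, 1402 and 1298. The 3 Stag2-/- siGLO libraries were the lowest of the 15, while the lowest Stag1-/- library exceeded 2 of the 3 wild-type siGLO libraries. Phlda3 fell by 0.58 in Stag2-/- cells (ratio 0.667, SE 0.13, adjusted p = 0.00497 from edgeR), a call kept whichever library was left out. It fell by 0.32 in Stag2-/- siStag1 cells (SE 0.13, adjusted p = 0.0617), where wild-type replicate 1 lay inside the range of the other group. That call was lost without wild-type replicate 2 (adjusted p = 0.255), wild-type replicate 3 (adjusted p = 0.161), or Stag2-/- siStag1 replicate 2 (adjusted p = 0.128) or 3 (adjusted p = 0.152). In Stag1-/- cells the change was 0.23 (SE 0.13, adjusted p = 0.269).

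Perp, Trp53inp1 and Bbc3 act in cell death. Perp (chr10:18845020-18857073, plus strand), a tetraspan membrane protein of desmosomes and apoptosis, had 436, 622 and 533 normalized counts in wild-type siGLO replicates 1, 2 and 3, against 885, 1075 and 804.5 in Stag1-/- cells. It had 488, 571 and 340.0 in Stag2-/- cells, 569, 742 and 521 in wild-type siStag1 cells, and 634, 451 and 336 in Stag2-/- siStag1 cells. The 3 Stag1-/- libraries lay above all 12 others. Perp rose by 0.80 in Stag1-/- cells (ratio 1.74, SE 0.22, adjusted p = 0.0238 from edgeR), and without wild-type replicate 1 it stood at 0.67 with adjusted p = 0.1002. The change in Stag2-/- cells was −0.19 (SE 0.22, adjusted p = 0.594).

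Trp53inp1 (chr4:11156431-11174379, plus strand), a stress-induced nuclear protein that promotes p53 phosphorylation and autophagy, had 4293, 5889 and 5019 normalized counts in wild-type siGLO replicates 1, 2 and 3, and 3169, 3669 and 3083 in Stag2-/- cells. Stag1-/- cells had 2845.5, 5314 and 4197, wild-type siStag1 cells 4654, 5505 and 4862, and Stag2-/- siStag1 cells 3797, 4938 and 4394. The Stag2-/- siGLO libraries lay below the wild type, and the Stag1-/- libraries spread over both. Trp53inp1 fell by 0.62 in Stag2-/- cells (ratio 0.653, SE 0.17, adjusted p = 0.0204 from edgeR), with adjusted p = 0.108 without wild-type replicate 2. In Stag1-/- cells the change was −0.30 (SE 0.17, adjusted p = 0.287), and with the block −0.32 (adjusted p = 0.0284 from edgeR). Without Stag1-/- replicate 2 it was −0.52 (adjusted p = 0.0583).

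Bbc3 (chr7:16308393-16318205, plus strand), which encodes the BH3-only protein PUMA, ran from 844 in wild-type siGLO replicate 1 to 1269 in Stag1-/- replicate 3 and passed in no comparison without the replicate block. Sesn2 (chr4:132492032-132510501, minus strand) encodes a sestrin that restrains mTORC1 signalling. It ran from 1256 in Stag2-/- replicate 3 to 2448 in Stag2-/- siStag1 replicate 1, passed in no comparison without the block, and spread widely in both Stag2-/- conditions (SD 423 in siGLO and 547 in siStag1 cells, n = 3, against 145 in wild-type siGLO cells).

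**Figure D3:**
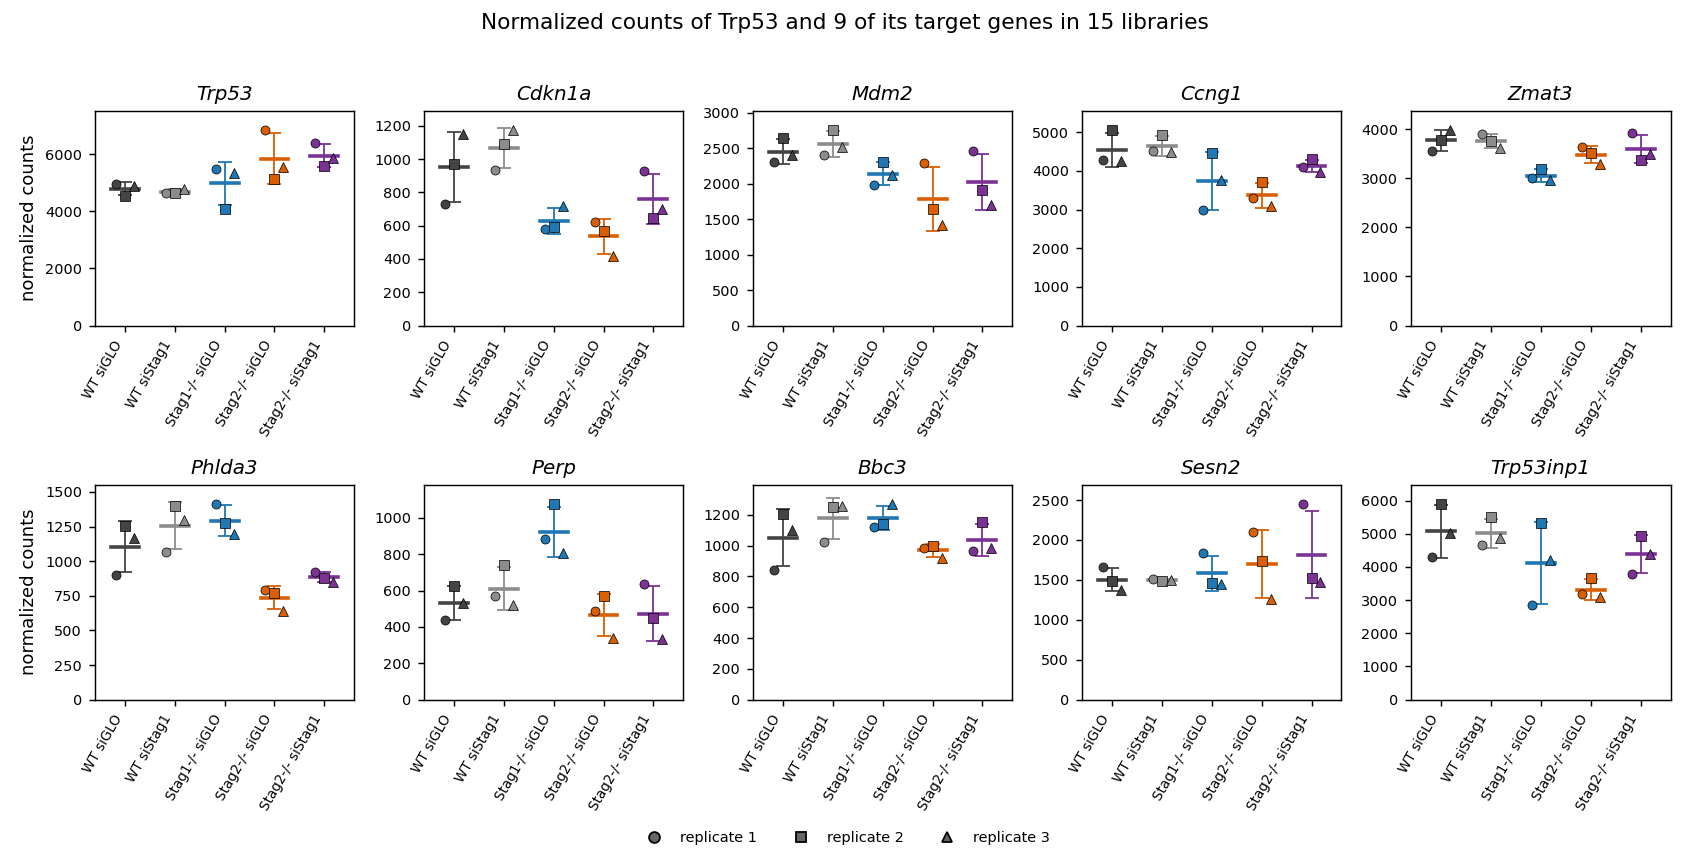
Normalized counts (y axis from 0) of the 10 genes in the 15 libraries, with symbols for replicates 1, 2 and 3 and a line with error bar for mean and SD (n = 3) in each condition. The Stag2-/- siGLO libraries of Cdkn1a, Phlda3, Ccng1 and Trp53inp1 lie below all wild-type siGLO libraries, and the Stag1-/- libraries of Perp lie above all others. Stag2-/- and wild-type siGLO libraries did not overlap in 6 of the 10 genes and in 35.7% of all tested genes. For Stag1-/- against wild-type siGLO it was 3 of the 10 and 31.7%.

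Ordered by their means, wild-type siStag1 was highest, wild-type siGLO next and Stag2-/- siGLO lowest in Cdkn1a, Mdm2 and Ccng1. Between these ends Stag2-/- siStag1 stood above Stag1-/- in Cdkn1a and Ccng1, and below it in Mdm2. In all 3 genes the libraries of each condition overlapped those of its neighbour in the order. Trp53inp1 had the order of Cdkn1a and Ccng1 except that wild-type siGLO stood above wild-type siStag1. The neighbours without overlap were Stag2-/- siStag1 above Stag2-/- siGLO in Phlda3, Stag1-/- above wild-type siStag1 in Perp, and Stag2-/- siGLO above Stag1-/- in Zmat3. For these pairs of conditions 19.3%, 32.4% and 31.0% of all tested genes did not overlap. Trp53 and Sesn2 had another order, with Stag2-/- siStag1 highest, Stag2-/- siGLO next and wild-type siStag1 lowest.

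The knockouts were then compared with each other. Of the 10 genes 2 differed between Stag1-/- and Stag2-/- cells, where 25.7% of all tested genes did, and both were higher in Stag1-/- cells. Phlda3 was higher by 0.81 on the log2 scale (ratio 1.76, SE 0.13, adjusted p = 0.000474 from edgeR), in 3 of 3 same-numbered pairs. Perp was higher by 0.98 (ratio 1.98, SE 0.22, adjusted p = 0.00621), also in 3 of 3. Both calls were kept in all 6 fits without 1 library. Other genes joined them in some of these fits: Ccng1 (0.29, adjusted p = 0.0833) and Trp53inp1 (0.52, adjusted p = 0.0283) without Stag1-/- replicate 1, Mdm2 (0.48, adjusted p = 0.0199) without Stag2-/- replicate 1, and Trp53 (−0.32, adjusted p = 0.0987) without Stag2-/- replicate 2. Cdkn1a fell in both knockouts and differed between them by 0.23 (SE 0.18, adjusted p = 0.414). With the replicate block 6 of the 10 genes differed, against 37.3% of all genes. The 4 added were Trp53 (−0.23, adjusted p = 0.0403), Zmat3 (−0.19, adjusted p = 0.0627), Bbc3 (0.28, adjusted p = 0.0380) and Trp53inp1 (0.29, adjusted p = 0.0407). Without the block, Zmat3 also passed with library size alone (−0.20, adjusted p = 0.0648). Against wild-type siGLO the block raised the calls in Stag1-/- cells to 5 of 10, where 30.6% of all genes were called.

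siStag1 asked what a lower level of STAG1 does with and without STAG2. Against siGLO, Stag1 mRNA stood at 0.206 times in wild-type cells and at 0.345 times in Stag2-/- cells. The difference of these effects was 0.75 in log2 (SE 0.19, adjusted p = 0.254 from edgeR). Under siStag1, Stag2-/- cells had 1.57 times the Stag1 mRNA of wild-type cells (adjusted p = 0.00227). Between the genotypes under siStag1, residual Stag1 and the absence of STAG2 therefore cannot be told apart. In Stag2-/- cells, the log2 fold change of siStag1 against siGLO was above 0 in all 9 targets, with a median of 0.18 against 0.0060 over all tested genes, and none passed, where 6.37% of all genes did. The sign of Sesn2, Perp and Zmat3 turned when single libraries were left out, and Perp was lower in 2 of 3 same-numbered pairs. DESeq2 also called 0 of the 10. At an unadjusted p under 0.05, which 16.7% of all genes reached, there were 3: Cdkn1a (0.50, SE 0.18, adjusted p = 0.157 from edgeR), Trp53inp1 (0.40, SE 0.17, adjusted p = 0.246) and Ccng1 (0.29, SE 0.12, adjusted p = 0.219). The Stag2-/- siStag1 libraries of these genes and of Phlda3 lay above all Stag2-/- siGLO libraries, and in 19.3% of all tested genes the libraries of these groups did not overlap in one direction or the other. Within same-numbered pairs, the log2 ratio of Cdkn1a was 0.58, 0.18 and 0.73, that of Trp53inp1 0.26, 0.43 and 0.51, and that of Ccng1 0.31, 0.21 and 0.37. With the replicate block these 3 genes passed (3 of 10, where 14.1% of all genes did), at adjusted p = 0.0917 for Cdkn1a, 0.0188 for Trp53inp1 and 0.0342 for Ccng1 from edgeR.

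In wild-type cells siStag1 moved none of the 10 past the threshold, and changes lay between −0.03 for Trp53 and 0.21 for Perp. The difference between the siStag1 effects in Stag2-/- and wild-type cells passed for 0 of the 10, against 0.159% of all genes, with 0 at an unadjusted p under 0.05 and 0 by DESeq2. It was largest for Trp53inp1 (0.42, SE 0.25, adjusted p = 0.931 from edgeR) and Cdkn1a (0.33, SE 0.25, adjusted p = 0.960). Among siStag1 cells, the absence of STAG2 went with changes in 3 of the 10 genes, against 37.5% of all genes. Trp53 was higher by 0.34 (SE 0.11, adjusted p = 0.0305 from edgeR). Cdkn1a was lower by a log2 change of −0.49 (SE 0.18, adjusted p = 0.0463) and Phlda3 by −0.51 (SE 0.13, adjusted p = 0.00740), where 18.1% of all genes were lower. The Cdkn1a call was lost without wild-type siStag1 replicate 2 (adjusted p = 0.112) or 3 (adjusted p = 0.147) and without Stag2-/- siStag1 replicate 2 (adjusted p = 0.168) or 3 (adjusted p = 0.138). Without Stag2-/- siStag1 replicate 1, Mdm2 (−0.50, adjusted p = 0.0196) and Perp (−0.64, adjusted p = 0.0382) passed as well. With all 15 libraries Mdm2 stood at −0.34 (adjusted p = 0.110), and it passed with library size alone (adjusted p = 0.0904), with no filter on low counts (adjusted p = 0.0835) and with the compared libraries alone (adjusted p = 0.0787).

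**Figure D4:**
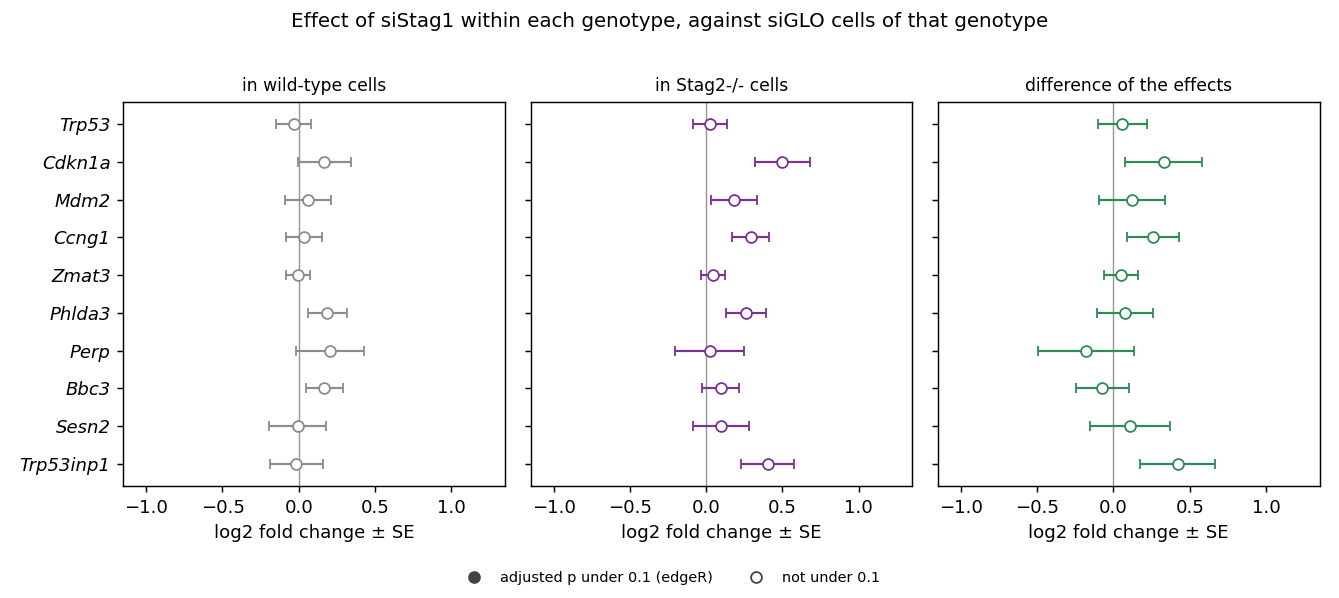
Log2 fold change (x axis, points with SE from edgeR, 3 libraries per condition) of siStag1 against siGLO in wild-type cells and in Stag2-/- cells, and the difference of these effects, for the 10 genes. No point is filled, since none passed an adjusted p of 0.1. In Stag2-/- cells Cdkn1a, Ccng1 and Trp53inp1 lie farthest above 0.

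Other p53 targets were taken from 5 lists by role, 46 genes in all, of which 44 were tested. Fas had at most 14 counts in any library and Sco2 had 0. In Stag2-/- cells 15 of the 44 fell and 0 rose against wild-type siGLO, so that 34.1% of them passed, against 28.3% of all genes, of which 14.4% fell and 13.9% rose. Of the same 44, 8 fell and 1 rose in Stag1-/- cells, or 20.5%, close to the share over all genes (20.0%, with 9.93% lower and 10.1% higher). Of the 44, in wild-type siStag1 cells 0 passed, and in Stag2-/- siStag1 cells 14 fell and 2 rose, or 36.4%, below the 43.9% of all genes (21.3% lower and 22.6% higher). Their median log2 fold changes were −0.18, −0.094, 0.046 and −0.12 in that order, against 0.0070, −0.013, −0.0017 and 0.0055 over all genes. Without 1 library the calls among the 44 ranged from 9 to 16 in Stag2-/- cells, the fewest (9) without wild-type siGLO replicate 2 or 3, from 7 to 10 in Stag1-/- and from 13 to 16 in Stag2-/- siStag1 cells. Of the 44, 11 were called in Stag2-/- cells with the compared libraries alone, where 3286 genes were called in all. At an adjusted p under 0.05 it was 10 of the 44, where 2922 of all 14508 genes were called. With the replicate block 14 of the 44 were called in Stag1-/- cells, where 30.6% of all genes were, and 1 in wild-type siStag1 cells, where 1.63% were.

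The metabolic targets include the largest falls among the named genes. Of 10 tested, 3 fell in Stag1-/-, 5 in Stag2-/- and 6 in Stag2-/- siStag1 cells, where 9.93%, 14.4% and 21.3% of all genes fell, and 0 rose. Gdf15, a stress-induced cytokine, had 87.0, 91.5 and 145 normalized counts in wild-type siGLO replicates 1, 2 and 3, against 38.4, 35.0 and 51.5 in Stag1-/- and 49.7, 21.6 and 27.5 in Stag2-/- cells. It fell in both, with log2 changes of −1.37 and −1.71 (adjusted p = 0.00938 and 0.00213 from edgeR), and changed by −1.81 in Stag2-/- siStag1 cells (adjusted p = 0.000548). Lpin1, a phosphatidate phosphatase of lipid synthesis, fell, with log2 changes of −0.71, −1.03 and −0.96 in Stag1-/-, Stag2-/- and Stag2-/- siStag1 cells (adjusted p = 0.0130, 0.000896 and 0.000601). Dglucy, a mitochondrial D-glutamate cyclase, fell in the same conditions, with −1.49, −1.27 and −1.83 (adjusted p = 0.00436, 0.00922 and 0.000365), from low levels of 136 to 170 normalized counts in wild-type siGLO cells. Gls2, the p53-induced glutaminase, was at 0.0026 in Stag1-/- cells (adjusted p = 0.992) and fell by 0.49 in Stag2-/- cells (adjusted p = 0.00309).

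Of 6 repair targets, 1 fell in Stag1-/-, 4 in Stag2-/- and 2 in Stag2-/- siStag1 cells, against 9.93%, 14.4% and 21.3% of all genes. Rrm2b, the p53-induced subunit of ribonucleotide reductase, had 351, 365 and 398 normalized counts in wild-type siGLO replicates 1, 2 and 3, against 135, 225 and 232 in the Stag1 knockout and 194, 221 and 228 in the Stag2 knockout. Its log2 changes were −0.91 and −0.79 (adjusted p = 0.00281 and 0.00570 from edgeR). The translesion polymerase gene Polk fell by 0.84 in Stag2-/- cells (adjusted p = 0.00638) and stood at −0.41 in Stag2-/- siStag1 cells (adjusted p = 0.109). The 2 that fell there were Rrm2b (−0.84, adjusted p = 0.00182) and Xpc (−0.36, adjusted p = 0.0248). Xpc, which recognises damage for nucleotide excision repair, fell by 0.33 in Stag2-/- cells (adjusted p = 0.0570). This call of Xpc was lost in 3 of 6 fits without 1 library (adjusted p up to 0.194), and its call in Stag2-/- siStag1 cells in 1 of 6 (adjusted p = 0.111).

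Of 9 feedback targets, 2 fell in each knockout and 4 in Stag2-/- siStag1 cells, against 9.93%, 14.4% and 21.3% of all genes. Mdm4, which binds and inhibits p53 beside MDM2, had 3109, 4105 and 4349 normalized counts in wild-type siGLO replicates 1, 2 and 3 and 2647, 2009.7 and 2358 in Stag2-/- cells. It fell by 0.72 there (adjusted p = 0.00148 from edgeR), and fell by 0.79 in Stag2-/- siStag1 cells (adjusted p = 0.000253). Ckap2, a microtubule-associated protein, fell by 0.42 in Stag2-/- cells (adjusted p = 0.00332), and fell by 0.28 in Stag2-/- siStag1 cells (adjusted p = 0.0178). Pml, the scaffold of nuclear bodies that hold p53, fell by 0.60 in Stag2-/- siStag1 cells (adjusted p = 0.00616). The p53 relative Trp73 (−0.66, adjusted p = 0.0115) and Rchy1, a ubiquitin ligase of p53 (−0.31, adjusted p = 0.0900), fell in Stag1-/- cells. The Rchy1 call was lost in 5 of 6 fits without 1 library (adjusted p up to 0.285), with DESeq2 size factors (adjusted p = 0.104 from edgeR), with no filter (adjusted p = 0.165) and with the compared libraries alone (adjusted p = 0.110).

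Apoptosis targets moved both ways. Of 11 tested, 2 fell and 1 rose in Stag1-/- cells, against 9.93% and 10.1% of all genes. There Pmaip1, which encodes NOXA, fell by 0.59 (adjusted p = 0.0123 from edgeR) and the death receptor gene Eda2r by 0.49 (adjusted p = 0.0216). The gene that rose, Tgfa (1.23, adjusted p = 0.00509), encodes a growth factor of the EGF receptor. The 3 that fell in Stag2-/- cells (14.4% of all genes) were Eda2r (−0.58, adjusted p = 0.00608), Tnfrsf10b, a TRAIL receptor (−0.34, adjusted p = 0.0881), and Apaf1, the apoptosome scaffold (−0.27, adjusted p = 0.0890). In Stag2-/- siStag1 cells 2 fell and 2 rose, where 21.3% and 22.6% of all genes did. Pmaip1 rose by 0.42 (adjusted p = 0.0322), and Bax, named here as the other that rose, by 0.30 (adjusted p = 0.0928). The Bax libraries overlapped those of wild-type siGLO cells. Siva1 (−0.28, adjusted p = 0.0359) and Tnfrsf10b (−0.33, adjusted p = 0.0670) fell. Of 8 arrest targets only Btg2, an antiproliferative cofactor, passed against wild-type siGLO, in Stag2-/- cells (−0.45, adjusted p = 0.0758), where 28.3% of all genes passed. None of the 8 passed in Stag1-/- or Stag2-/- siStag1 cells, where 20.0% and 43.9% of all genes did. Several of these calls rested on single libraries. Leaving out 1 library at a time ended the call of Apaf1 in 5 of 6 fits, of Btg2 and of Tnfrsf10b in both comparisons in 4, and of Eda2r in Stag1-/- and Pmaip1 and Siva1 in Stag2-/- siStag1 cells in 2. The highest adjusted p among these was 0.307, for Btg2 without wild-type replicate 2. Other settings also ended some of them. Among the Stag2-/- calls, Btg2 (adjusted p = 0.103 from edgeR) and Apaf1 (0.111) were lost with library size alone, Tnfrsf10b (0.105) and Apaf1 (0.114) with no filter, and Btg2 (0.131), Tnfrsf10b (0.101) and Apaf1 (0.126) with the compared libraries alone.

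Genes that act on p53 upstream of its targets formed a further list. Of 17 tested, 3 rose and 0 fell in Stag1-/- cells, where 10.1% of all genes rose. In the Stag2 knockout 3 rose (13.9% of all genes) and 1 fell, Ppp1r13b, a p53-binding protein of the ASPP family (−0.50, adjusted p = 0.0159 from edgeR), named here because it was the 1 that fell. In Stag2-/- siStag1 cells 4 rose and 3 fell, against 22.6% and 21.3% of all genes. Trp63 had at most 2 counts in any library and was not tested. Hipk2, a kinase that phosphorylates p53, had a mean of 305 normalized counts in wild-type siGLO cells (highest library 311), against replicate values of 592, 475 and 381 in the Stag1 knockout, 457, 522 and 549.0 in the Stag2 knockout and 680.1, 689.6 and 944.5 in Stag2-/- siStag1 cells. It rose by 0.66, 0.74 and 1.34 (adjusted p = 0.00959, 0.00369 and 8.63e-06 from edgeR). Trp53bp1, a p53-binding protein of double-strand break repair, rose by 0.41, 0.34 and 0.68 (adjusted p = 0.00529, 0.0134 and 2.68e-05). The acetyltransferase gene Crebbp rose by 0.53 in Stag2-/- and by 0.83 in Stag2-/- siStag1 cells (adjusted p = 0.00377 and 3.81e-05). Cdkn2a, whose product ARF inhibits MDM2 and whose other product p16 inhibits CDK4 and CDK6, had 409.5, 339.7 and 321 normalized counts in Stag1-/- cells, against 179.5, 149.5 and 137 in wild-type siGLO cells. It rose to 2.29 times the wild-type level (SE 0.27 in log2, adjusted p = 0.00646), and the gene count does not separate the products.

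Cell cycle genes that p21 helps to repress were examined last. Of 14 tested, 5 rose and 0 fell in Stag1-/- cells, where 10.1% of all genes rose, among them the anaphase activator Cdc20 (0.48, adjusted p = 0.00412 from edgeR), Top2a (0.28, adjusted p = 0.0216) and Mki67 (0.44, adjusted p = 0.0447). The Mki67 call was lost in 3 of 6 fits without 1 library, with adjusted p = 0.227 without Stag1-/- replicate 2. Stag2-/- cells had 2 that rose and 2 that fell, against 13.9% and 14.4% of all genes. The mitotic kinase gene Plk1 rose by 0.29 (adjusted p = 0.00773), while the phosphatase gene Cdc25c (−0.37, adjusted p = 0.0176) and the checkpoint gene Bub1b (−0.21, adjusted p = 0.0540) fell, the last lost in 4 of 6 fits and with no filter (adjusted p = 0.102). In Stag2-/- siStag1 cells 2 rose, Plk1 (0.34, adjusted p = 0.000975) and Cdc20 (0.40, adjusted p = 0.00493), and 2 fell, among them Bub1b (−0.24, adjusted p = 0.0139), against 22.6% and 21.3% of all genes. The medians of the list were 0.16, 0.0072 and 0.025, against −0.013, 0.0070 and 0.0055 over all genes. The lists were chosen with earlier results of these data known.

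**Figure D5:**
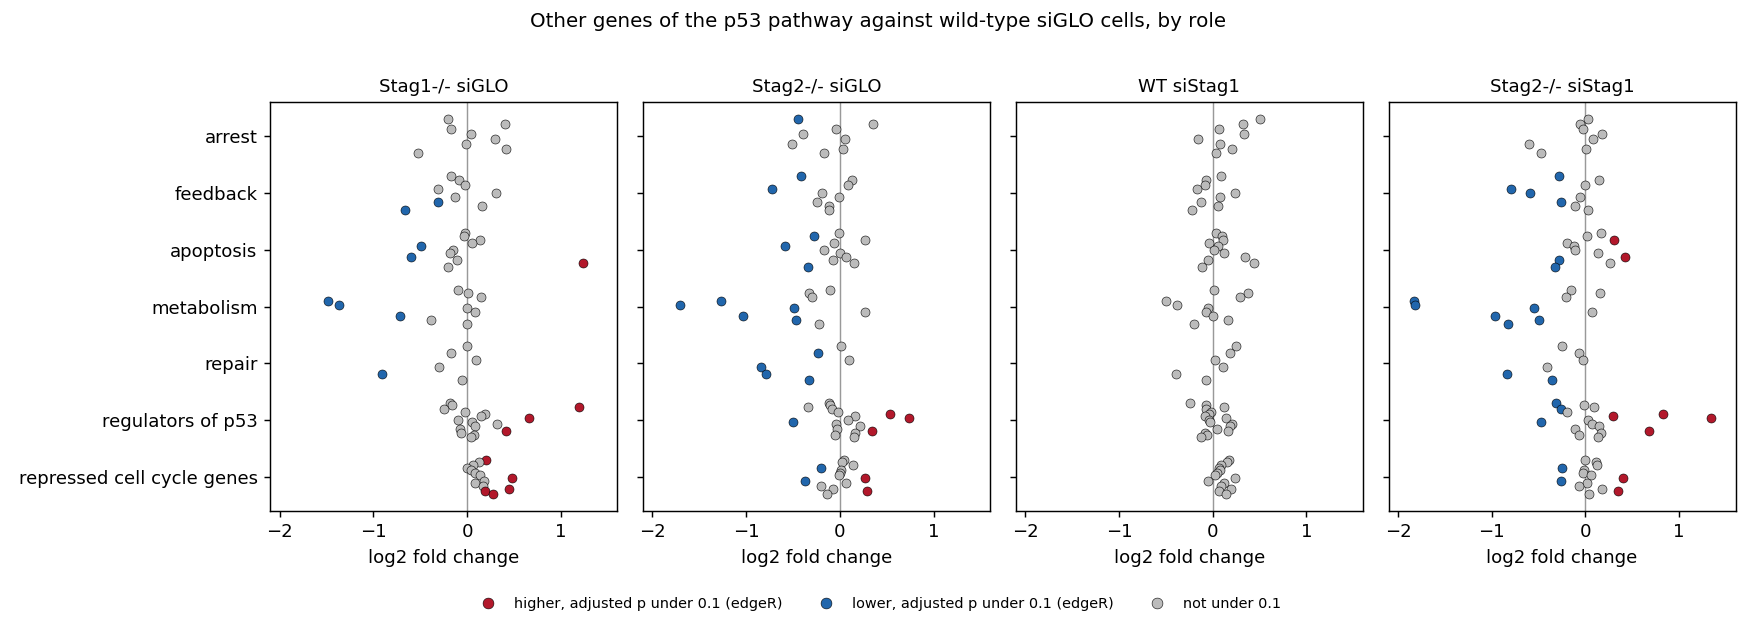
Log2 fold change (x axis) against wild-type siGLO cells of the other tested genes of the p53 pathway, 1 point per gene, in 7 lists by role and 4 conditions of 3 libraries each. Blue points fell and red points rose at an adjusted p under 0.1 (edgeR). The metabolic and repair targets reach farthest to the left in conditions other than wild-type siStag1, in which no point is coloured.

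Across the 15 libraries, the log2 CPM of Ccng1 and Trp53inp1 had a Pearson r of 0.955 and that of Cdkn1a and Mdm2 0.813, while Trp53 had −0.685 with Trp53inp1. The libraries share conditions and replicate numbers, so these values are descriptions without a test. The tested genes most like Cdkn1a over the 15 libraries were Plod2 (r = 0.908), Rev1 (0.887), 4933426M11Rik (0.883), Paqr9 (0.876) and Jund (0.869). Plod2, a collagen lysyl hydroxylase, had 2433 to 2909 normalized counts in wild-type siGLO, 1112 to 1603 in Stag1-/- and 1155 to 1392 in Stag2-/- cells. Those most like Trp53 were Ccdc12 (0.945), Cnot3 (0.940), Rab11b (0.931), Atf6b (0.928) and U2af2 (0.926).

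Neighbouring genes were examined for the 8 members that passed against wild-type siGLO, as the median log2 fold change of the tested genes within 5 Mb. The median in Stag2-/- cells was 0.021 for the 228 genes near Cdkn1a, 0.061 for the 42 near Mdm2, 0.046 for the 14 near Ccng1, −0.022 for the 37 near Trp53inp1 and −0.016 for the 147 near Trp53. For the 82 genes near Phlda3 it was −0.13, against −0.58 for Phlda3, and in Stag2-/- siStag1 cells it was −0.12, against −0.32 for Phlda3. Near Trp53 it was −0.032 in Stag2-/- siStag1 cells. The medians in Stag1-/- cells were 0.043 near Cdkn1a, −0.059 for the 43 genes near Zmat3, against −0.30 for Zmat3, and 0.037 for the 34 genes near Perp, against 0.80 for Perp.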

How the data were processed

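PolyA RNA of 15 v6.5 mESC libraries was sequenced by the authors as 150 bp paired-end reads and aligned to mm10 with STAR, and they tested expression with DESeq2. The deposited values were raw counts per gene and library for 23412 genes. The counting tool, annotation and strand setting are not given in the sources used here. 4 summary lines per file (ambiguous 379446 to 499487, multimapping 856645 to 1070944, without feature 2132981 to 2989457, unmapped 875042 to 1116743 per library) were left out of library sizes and tests. Of 15 pairs of replicates none differed as little as sampling noise (chi-square per degree of freedom 4.52 to 25.2), so all were kept.

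Counts were tested with edgeR 4.0.16 (R 4.3.3, quasi-likelihood, TMM, 1 coefficient per condition over all 15 libraries, filterByExpr with a minimum count of 10 and total of 15). This left 14508 of 19494 genes with a count. Benjamini-Hochberg adjustment ran over all 14508 genes, with a threshold of 0.1. There were 8 comparisons, including the difference between the siStag1 effects with and without STAG2. The SE was the log2 fold change divided by the square root of F. Normalized counts were counts divided by the TMM library size and brought to a common depth. RPKM used summed exon length from GENCODE, whose symbols matched 21777 genes directly and 1278 by older symbols, while 357 were not matched. Plots used matplotlib 3.10.9 (Python 3.11.15).

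The 10 members and the lists were chosen with earlier results of these data known. Named genes were all members, up to 3 called genes with the smallest p per list and comparison with wild-type siGLO, and the 5 genes with the highest Pearson correlation to Cdkn1a and to Trp53 in log2 CPM (prior count 2). Gls2 in Stag1-/- cells is also given where its Stag2-/- change is named. Ppp1r13b in Stag2-/- cells and Bax in Stag2-/- siStag1 cells are named outside this rule, and their calls were not followed through the other settings.

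Same-numbered libraries deviated together over 12439 genes (mean r 0.284 over 30 pairs, 27 of them above 0.1, against −0.139 over 60 other pairs). Deviations were taken from each condition's mean, so the value of the other pairs follows largely from that of the same-numbered pairs. It is not separate evidence of pairing. In 5 comparisons every such pair was above 0.1: Stag1-/- and Stag2-/- against wild-type siGLO, siStag1 against siGLO in wild-type and in Stag2-/- cells, and Stag1-/- against Stag2-/-. There the numbers were taken as pairing the libraries. This pairing comes from the data, not from the labels. The main fits, with their calls and p-values, did not use it. Only the fits with the replicate number as a block did. Against wild-type siGLO, the block took the members called from 3 to 5 in Stag1-/- cells. It left them at 6 in Stag2-/- and at 0 in wild-type siStag1 cells. For siStag1 in Stag2-/- cells it took them from 0 to 3, and between the knockouts from 2 to 6.

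In simulated counts for Stag2-/- against wild-type siGLO, 146 of 200 genes changed by 2-fold and 72 of 200 changed by 1.5-fold were called. For the difference between the siStag1 effects it was 115 and 33 of 200. In each simulation only these 200 genes were changed, whereas 28.3% of all tested genes were called in Stag2-/- cells. The simulated counts therefore do not give the power of that comparison. Alternatives were DESeq2 1.42.0, its size factors in edgeR, library size alone, other filters, the replicate number as a block, the compared libraries alone, a threshold of 0.05, and leaving out each library.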

Additional observations from a re-analysis of the deposited data

Results flagged for a closer look

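The direct comparison of Stag1-/- with Stag2-/- cells tests whether 2 knockouts that share their wild-type control differ. By an adjusted p under 0.1 (edgeR) it singled out 16 of 39 genes of the p53 pathway, where 25.7% of all tested genes differed. The 39 are the 10 members and the list genes named by the rule above. Ppp1r13b and Bax, named outside that rule, are not among them. The named genes other than the members were picked because they had passed against wild-type siGLO in at least 1 comparison, so this count is not independent of the choice. Each log2 difference below is Stag1-/- minus Stag2-/-, 3 libraries each, and each knockout is 1 clone, so that genotype and clone cannot be told apart. Among the members these were Phlda3 (0.81, SE 0.13, adjusted p = 0.000474) and Perp (0.98, SE 0.22, adjusted p = 0.00621). Among regulators of p53 and its feedback genes, Cdkn2a differed by 1.54 (SE 0.27, adjusted p = 0.00107), Pml by 0.50 (adjusted p = 0.0317), Mdm4 by 0.41 (adjusted p = 0.0446) and Ckap2 by 0.25 (adjusted p = 0.0589). Crebbp (−0.34, adjusted p = 0.0480) and Trp73 (−0.55, adjusted p = 0.0277) were lower in Stag1-/- cells.

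Among apoptosis targets, Tgfa was higher in Stag1-/- cells by 1.08 (adjusted p = 0.00989), while Pmaip1 was lower (−0.66, SE 0.15, adjusted p = 0.00526). Gls2 was higher by 0.50 (adjusted p = 0.00314) and Polk by 0.55 (SE 0.19, adjusted p = 0.0627). The cell cycle genes Cdc25c (0.56, adjusted p = 0.00141), Top2a (0.41, adjusted p = 0.00143), Mki67 (0.52, adjusted p = 0.0179) and Bub1b (0.20, adjusted p = 0.0620) were all higher in Stag1-/- cells.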

How the results depend on the processing

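With the replicate block the calls over all genes numbered 4443 in Stag1-/- against wild-type siGLO (2907 without it), 236 in wild-type siStag1 (36), 2049 for siStag1 in Stag2-/- cells (924) and 138 for the difference of siStag1 effects (23). The members called numbered 5, 5, 3, 5 and 6 in Stag1-/- and in Stag2-/- siStag1 against wild-type siGLO, siStag1 in Stag2-/- cells, Stag2-/- against wild type under siStag1, and Stag1-/- against Stag2-/-. In the second and the fourth of these 53.7% and 47.5% of all genes were called, so that 5 of 10 is near the share over all genes. In the second Mdm2 (adjusted p = 0.0866 from edgeR), Sesn2 (0.0941) and Trp53inp1 (0.0967) were added, and in the fourth Mdm2 (0.0459) and Perp (0.0874). In both of these the same-numbered libraries only share a number, since the lowest pair correlations were 0.0359 and −0.0774. The block changed no other member's call. DESeq2 called 133 genes in wild-type siStag1 and 102 for the difference of effects. Fits on the compared libraries alone called 126 and 14 there, 224 for siStag1 in Stag2-/- cells and 2406 between the knockouts (3722 with all libraries). An adjusted p under 0.05 left 22 genes in wild-type siStag1 and 548 for siStag1 in Stag2-/- cells. In Stag2-/- siStag1 against wild-type siGLO it left 1 of the 10 members, where 5208 of all 14508 genes were called.

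Without 1 library, calls over all genes ranged from 1915 to 2748 (Stag1-/-), 2524 to 3985 (Stag2-/-), 1 to 15 (wild-type siStag1) and 5166 to 6218 (Stag2-/- siStag1) against wild-type siGLO, 416 to 1484 for siStag1 in Stag2-/- cells, 4237 to 5324 between the genotypes under siStag1, 2539 to 3522 between the knockouts and 13 to 76 for the difference of effects. Members called ranged from 2 to 4, 2 to 5, 0 to 0, 0 to 3, 0 to 0, 2 to 5, 2 to 4 and 0 to 0 in that order. The fewest in Stag2-/- (2) and in Stag2-/- siStag1 cells (0) came without wild-type siGLO replicate 2, the most between genotypes under siStag1 (5) without Stag2-/- siStag1 replicate 1, and 4 between the knockouts without Stag1-/- replicate 1.

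No called member reversed. In wild-type siStag1 cells Zmat3 turned from −0.0033 to 0.0002 with library size alone, 0.0061 with no filter and 0.0015 with at least 10 counts in every library. Sesn2 turned there from −0.0085 to 0.0012 with no filter and 0.0046 with the replicate block. Without 1 library, these uncalled changes crossed 0. Sesn2 ranged from −0.0465 to 0.1484 (Stag1-/-), −0.0074 to 0.3518 (Stag2-/-), −0.0711 to 0.0675 (wild-type siStag1), −0.0027 to 0.4037 (Stag2-/- siStag1), −0.1776 to 0.2793 (siStag1 in Stag2-/-), −0.2789 to 0.0804 (between knockouts) and −0.1693 to 0.2876 (difference of effects). Trp53 ranged from −0.0233 to 0.1748 (Stag1-/-), −0.061 to 0.1522 (siStag1 in Stag2-/-) and −0.0267 to 0.1863 (difference of effects). Perp ranged from −0.4307 to 0.0349 (Stag2-/- siStag1), −0.2454 to 0.2197 (siStag1 in Stag2-/-) and −0.4513 to 0.0139 (difference). Zmat3 ranged from −0.0458 to 0.0369 (wild-type siStag1), −0.0198 to 0.0927 (siStag1 in Stag2-/-) and −0.0166 to 0.0958 (difference). Bbc3 ranged from −0.1602 to 0.0855 (Stag2-/- siStag1) and −0.1829 to 0.0626 (difference). In wild-type siStag1 cells Ccng1 ranged from −0.013 to 0.1186 and Trp53inp1 from −0.1234 to 0.1053, and in the difference Mdm2 ranged from −0.0459 to 0.3437 and Phlda3 from −0.0271 to 0.2064. For all these the cause was not tested. Of the member values under settings other than leaving out a library, 614 kept direction and call, 18 gained and 3 lost the call, and 5 changed sign.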
